A study of Homo sapiens with 12 samples.

Results

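Messenger RNA of 10 genes for surface proteins used to type or target acute myeloid leukaemia was followed in MOLM-13 cells: CD33, CLEC12A, CD38, CD44, CD4, HAVCR2, CD34, ANPEP, CD36 and SIRPA. They were found among the 60668 genes counted by mapping the Ensembl identifier to the symbol, and each symbol had 1 entry. Of these, 9 had enough counts to be tested, and CD34 had no count in any library. MOLM-13 is an established human acute monocytic leukaemia line with an MLL-AF9 fusion gene and a FLT3 receptor kinase made active by an internal tandem duplication. RNA was measured after 8 days in 4 groups of 3 libraries: DMSO, the solvent control; MI-3454, which blocks the binding of menin to MLL1; gilteritinib, a FLT3 kinase inhibitor; and MI-3454 with gilteritinib, here called the combination. Every group is the same line in the same medium, the labels give no dose, and they say that cells were seeded in triplicate without naming separate days or passages. The p-values therefore measure the spread between cultures of a single line, which may be partly technical. A treatment label ends in MI3455 or MI3456 for replicates 2 and 3 of both groups with MI-3454, whereas all titles name MI3454, and the titles were followed.

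Leukaemic blasts are typed by the surface proteins they share with normal myeloid cells at different stages of maturation. CD34 marks stem and progenitor cells, CD33, CLEC12A and ANPEP (CD13) mark myeloid cells from the progenitor stage onward, and CD36 and CD4 are carried by monocytes. Several of these proteins are themselves drug or antibody targets: CD33 is the target of an approved antibody conjugate, and CLEC12A, CD38, HAVCR2 (TIM-3) and the SIRPA ligand CD47 are targets of antibodies in development or in use. The libraries hold RNA of whole cultures, so that fewer cells expressing a gene and less RNA per cell cannot be told apart, and the amount of protein at the surface was not measured.

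Gene counts per library ranged from 6472940 to 12051457. The share of uniquely placed reads outside any annotated gene was 28.5 to 36.5% with the combination, 16.6 to 20.4% with DMSO, 15.6 to 17.8% with gilteritinib and 17.4 to 25.5% with MI-3454. It was highest in the combination, whose results below move with it, and its part in them was not tested. The libraries with the highest share of RN7SL1, a small cytoplasmic RNA, in their groups were combination 1, MI-3454 3, gilteritinib 2 and DMSO 2. MI-3454 3 stood well above the other 2 of its group (4.56% against 2.34 and 2.02%), while the combination libraries lay between 1.17 and 1.66%. Gilteritinib 2 also had the highest mitochondrial share (2.84%, against 1.12 and 1.13% in the others of its group). Of 9 genes that mark myeloid cells, 8 were detected, and their summed level was 1748 to 2084 counts per 1e6 counts (CPM) with DMSO, 2452 to 2544 with gilteritinib, 10200 to 11210 with MI-3454 and 15690 to 17120 with the combination. LYZ alone held most of that sum in both groups with MI-3454. Its mean was 415 CPM with DMSO, 683 with gilteritinib, 7847 with MI-3454 and 13522 with the combination. SPI1, in the same order, stood at 265, 313, 278 and 288 CPM, so the sum does not describe each gene. The undetected one was CSF2RA, which lies in a pseudoautosomal region. In these regions only 1 of 18 protein-coding genes had any count, so the levels of CSF2RA and of the leukaemia targets IL3RA and CD99 could not be read. Of 16 genes that mark T cells, B cells, erythroid cells, megakaryocytes, epithelium or stroma, 9 had at most 2 counts over all libraries, 4 of them none, and their summed level was 2.13 to 9.58 CPM. That sum was 2.13 to 2.35 CPM with the combination and 4.97 to 7.28 CPM with DMSO.

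With MI-3454, 7 of the 9 tested genes rose against DMSO (CLEC12A, ANPEP, CD36, HAVCR2, CD33, SIRPA and CD4), CD38 fell, and CD44 was not called. A gene was called at a Benjamini-Hochberg adjusted p under 0.05 in edgeR's quasi-likelihood test, and in this comparison 10.1% of all tested genes were called higher and 8.95% lower. With gilteritinib, 4 rose (ANPEP, CLEC12A, CD33 and SIRPA), CD38 fell and 4 were not called, where 6.92% of all genes were called higher and 8.18% lower. This fit ignores replicate numbers. With them as a block, 6 were called higher with gilteritinib, CD4 and CD44 among them, and 1 lower. With the combination, 6 rose (CLEC12A, CD36, ANPEP, CD33, SIRPA and CD4), CD44 fell and 2 were not called, where 29.2% of all genes were called higher and 28.4% lower. The median log2 change over the 9 genes was 0.83 with MI-3454, 0.33 with gilteritinib and 0.87 with the combination, beside medians over all genes of 0.0032, -0.00067 and -0.00066. The 3 comparisons share the DMSO libraries.

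**Figure D1:**
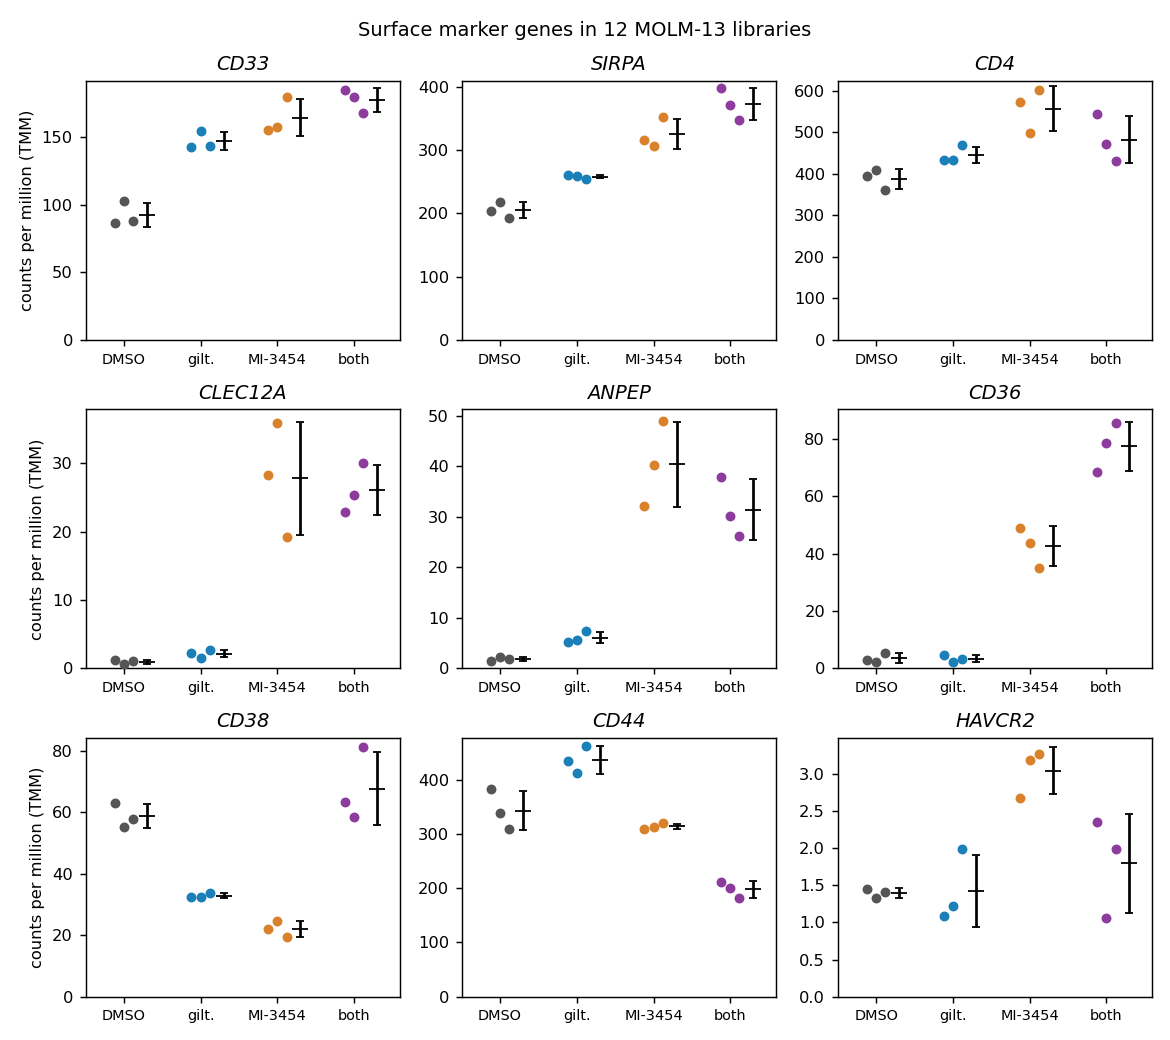
TMM-scaled CPM (linear axes from 0) of the 9 detected surface marker genes, with 1 point per library and, beside each group, a bar at the mean with whiskers of 1 SD (n = 3). CLEC12A, ANPEP and CD36 are near 0 with DMSO and high in both groups with MI-3454, CD38 is low with either agent alone, and CD44 is lowest with both.

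**Figure D2:**
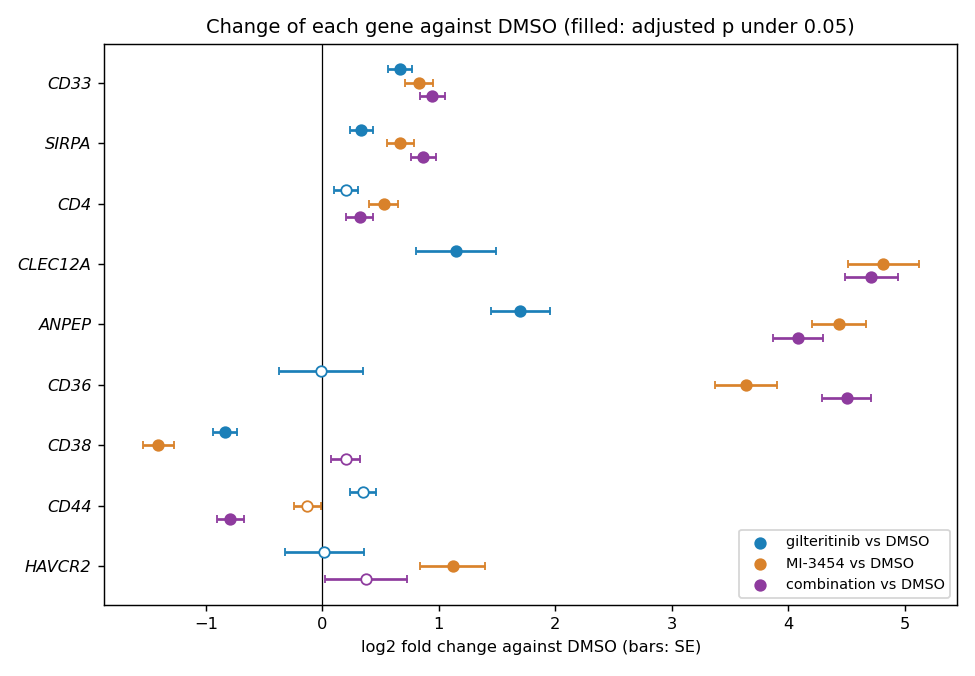
Log2 fold change of each gene against DMSO with each treatment, with bars of 1 standard error (SE) from edgeR, and filled points where the adjusted p was under 0.05. The changes of CLEC12A, ANPEP and CD36 with MI-3454 and with the combination lie between 3.64 and 4.82, and those of the other genes lie between -1.41 and 1.12.

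The genes differed widely in their level before treatment, compared per kilobase of exon. In DMSO, CD4 stood highest at 84.5 ± 5.4 CPM per kb (SD, n = 3), followed by SIRPA at 40.4 and CD44 at 34.3, then CD33 at 15.5 and CD38 at 8.57. ANPEP, HAVCR2, CD36 and CLEC12A stood between 0.30 and 0.382 CPM per kb. With MI-3454, CLEC12A reached 8.55 ± 2.6 CPM per kb, ANPEP 8.30 ± 1.7 and CD36 3.91 ± 0.64. Their means stood above that of CD38, at 3.22 ± 0.38. The 5 abundant genes moved by less than 3-fold against DMSO with any treatment, and the other 4 were scarce with DMSO.

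Among the scarce genes, CLEC12A encodes an inhibitory C-type lectin receptor, also called CLL-1, found on myeloid cells and leukaemic blasts (ENSG00000172322.14, chr12:9951316-9995694 of GRCh38, plus strand). Its level was 1.18, 0.664 and 1.08 CPM in the 3 DMSO libraries and 2.26, 1.58 and 2.64 CPM with gilteritinib. It was 28.2, 35.8 and 19.2 CPM with MI-3454 and 22.9, 25.3 and 30.0 CPM with the combination. Every library with MI-3454 stood above every library without it, and the 3 gilteritinib libraries stood above the 3 DMSO libraries. The rise was 28.2-fold with MI-3454 (log2 4.82 ± 0.30 SE, adjusted p = 5.1e-07) and of like size with the combination (log2 4.71 ± 0.23, adjusted p = 2.9e-11). The difference between these 2 groups was -0.10 ± 0.20 on the log2 scale (adjusted p = 0.74). The rise with gilteritinib alone was small and rested on 7 to 13 counts per DMSO library (log2 1.15 ± 0.34, adjusted p = 0.042). The CLEC12A call with gilteritinib was lost in 8 of 12 alternative settings, among them leaving out any DMSO library or gilteritinib replicate 1 or 3, with adjusted p up to 0.14, while its log2 change stayed between 0.93 and 1.32. An antisense gene, CLEC12A-AS1, and CLEC1B share exonic bases with CLEC12A, and both had 0 counts in all libraries.

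ANPEP encodes CD13, a membrane aminopeptidase that trims peptides at the cell surface (ENSG00000166825.14, chr15:89784889-89815401, minus strand). Its level was 1.36, 2.28 and 1.94 CPM with DMSO and 5.27, 5.59 and 7.38 CPM with gilteritinib. It was 32.2, 40.3 and 48.9 CPM with MI-3454 and 38.0, 30.2 and 26.1 CPM with the combination. The DMSO, gilteritinib and MI-3454 libraries formed 3 separate ranges, and the combination overlapped MI-3454 alone. ANPEP rose 21.7-fold with MI-3454 (log2 4.44 ± 0.23, adjusted p = 1.5e-07), by 1.70 ± 0.25 with gilteritinib (adjusted p = 0.0007) and by 4.08 ± 0.21 with the combination (adjusted p = 8.2e-11). Unlike the gilteritinib call of CLEC12A, that of ANPEP held in all 12 alternatives, with adjusted p of at most 0.0061.

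CD36 encodes a scavenger receptor for oxidised lipoproteins, long-chain fatty acids and thrombospondin, and is used to mark monocytic blasts (ENSG00000135218.19, chr7:80369575-80679277, plus strand). Its level was 2.91, 2.09 and 5.40 CPM with DMSO and 4.51, 2.07 and 3.30 CPM with gilteritinib, and these ranges overlapped. It was 48.9, 43.7 and 35.1 CPM with MI-3454 and 68.5, 78.7 and 85.5 CPM with the combination, the highest of the 4 groups in every library. CD36 rose 12.4-fold with MI-3454 (log2 3.64 ± 0.27, adjusted p = 1.5e-06) and 22.7-fold with the combination (log2 4.50 ± 0.21, adjusted p = 2.3e-11). With gilteritinib alone the log2 difference was -0.01 ± 0.36 (adjusted p = 0.99), an error wide enough that a change of moderate size could not be seen.

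Since CLEC12A, ANPEP and CD36 rose together with MI-3454, stretches upstream of their start sites are shown, with that of CD38, the one gene that fell with each agent alone. The stretches come from RefSeq on GRCh38.p14, at the most upstream RefSeq start of each gene, within the 250 bases before it and without bases that GENCODE 29 places in an exon. They are CLEC12A chr12:9971159-9971408 (plus strand), ANPEP chr15:89814865-89815102 (minus), CD36 chr7:80601957-80602149 (plus) and CD38 chr4:15778078-15778274 (plus), written 5′ to 3′ on the gene's strand. Capitals mark each match, on either strand, to a searched motif: the PU.1 core GAGGAA, the C/EBP form TTGCNNAA, the RUNX form TGNGGT, the AP-1 form TGANTCA and the TATA form TATAAA, where N is any base.
CLEC12A: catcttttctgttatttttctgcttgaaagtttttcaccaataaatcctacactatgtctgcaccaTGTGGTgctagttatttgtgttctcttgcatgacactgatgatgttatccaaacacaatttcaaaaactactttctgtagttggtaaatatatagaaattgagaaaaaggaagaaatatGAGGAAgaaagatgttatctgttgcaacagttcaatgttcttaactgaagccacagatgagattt
ANPEP: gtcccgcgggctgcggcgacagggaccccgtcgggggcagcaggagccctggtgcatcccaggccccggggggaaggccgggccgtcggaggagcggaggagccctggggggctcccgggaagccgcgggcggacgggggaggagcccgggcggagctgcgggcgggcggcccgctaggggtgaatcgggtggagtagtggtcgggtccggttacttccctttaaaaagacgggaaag
CD36: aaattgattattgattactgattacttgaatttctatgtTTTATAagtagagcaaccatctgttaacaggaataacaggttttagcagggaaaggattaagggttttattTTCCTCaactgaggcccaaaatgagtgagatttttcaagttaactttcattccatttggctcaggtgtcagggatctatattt
CD38: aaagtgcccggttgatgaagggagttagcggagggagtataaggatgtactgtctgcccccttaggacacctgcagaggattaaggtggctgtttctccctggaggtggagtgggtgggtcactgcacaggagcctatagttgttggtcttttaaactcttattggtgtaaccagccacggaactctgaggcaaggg

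In CLEC12A the capitals are a RUNX and a PU.1 match, in CD36 a TATA and a PU.1 match, both on the other strand, and neither ANPEP nor CD38 holds a match. Over the full 250 bases before the most upstream start, 4 of the 7 members with a RefSeq entry held the PU.1 core (CD33, CLEC12A, CD34 and CD36), against 23.6% of 34941 promoter windows of the same length. Those windows hold all RefSeq starts of a gene and not only the most upstream, so the shares are over unlike sets of starts. The RUNX form was found in 2 of the 7 (CD33 and CLEC12A), against 37.7% of windows, and the TATA form in 1 (CD36), against 10.8%. At that start no member held the C/EBP or the AP-1 form, which 9.06% and 6.59% of windows hold. RefSeq lists 6 starts for CD36, 2 for ANPEP and 1 for each of the others. Of the 6 windows of CD36, 3 held the PU.1 core, 2 the TATA form, 1 the RUNX form and 1 the AP-1 form, and neither window of ANPEP held a match. In CD33 a PU.1 and a RUNX match overlap. A match describes letters and not binding, and a window without one says only that these letters are not in it. The start site that the cells used was not measured. The most upstream RefSeq start of CD36 lies 232632 bases inside the gene as GENCODE 29 draws it, and that of CLEC12A lies 20093 bases inside. CD4, HAVCR2 and SIRPA are named only.

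Among the abundant genes, CD33 encodes an inhibitory sialic acid-binding lectin, also called SIGLEC3 (ENSG00000105383.15, chr19:51225064-51243860, plus strand). Its level was 86.5, 103 and 88.1 CPM with DMSO and 143, 155 and 143 CPM with gilteritinib. It was 155, 158 and 180 CPM with MI-3454 and 185, 180 and 168 CPM with the combination. All 9 treated libraries stood above the 3 DMSO libraries, and the treated groups lay close to each other. CD33 rose 1.78-fold with MI-3454 (log2 0.83 ± 0.12, adjusted p = 0.00043), by 0.67 ± 0.10 with gilteritinib (adjusted p = 0.0009) and by 0.94 ± 0.11 with the combination (adjusted p = 1.3e-06). The groups stood in the order DMSO, gilteritinib, MI-3454, combination, and among the treated groups neighbours in that order were not called different: MI-3454 against gilteritinib gave 0.15 ± 0.10 (adjusted p = 0.32) and the combination against MI-3454 gave 0.12 ± 0.10 (adjusted p = 0.38). The ends of the treated range differed, with the combination above gilteritinib by 0.28 ± 0.08 (adjusted p = 0.0071). The counts do not separate splice forms, so nothing is known here of the form that lacks the ligand-binding domain.

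SIRPA encodes the inhibitory receptor of phagocytes for CD47, a protein that blood cells display against being engulfed (ENSG00000198053.11, chr20:1894167-1940592, plus strand). Its level was 204, 218 and 193 CPM with DMSO, 260, 259 and 255 CPM with gilteritinib, 317, 307 and 352 CPM with MI-3454, and 399, 372 and 348 CPM with the combination. The groups rose in that order, with overlap only between the last pair. SIRPA rose by 0.67 ± 0.12 with MI-3454 (adjusted p = 0.0016) and by 0.87 ± 0.11 with the combination (adjusted p = 3.2e-06). With gilteritinib it rose by 0.33 ± 0.10 (adjusted p = 0.039), but the SIRPA call was lost in 6 of 12 alternatives, with adjusted p from 0.062 with total counts in place of TMM scaling to 0.14 without gilteritinib replicate 1. It was lost too without DMSO 1 or 3 (0.13 and 0.12) and without gilteritinib 2 or 3 (0.095 and 0.12). An antisense gene, AL117335.1, shares 208 exonic bases with SIRPA and had 976 counts over all libraries, against 33472 for SIRPA. SIRPA also has near-identical copies in the SIRP family, between which reads can be split.

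Its ligand CD47 rose by 0.72 with MI-3454 (adjusted p = 0.011) and by 0.65 with the combination (adjusted p = 0.00089), reaching 101 ± 18 and 95.8 ± 12 CPM from 60.9 ± 12 CPM in DMSO. Under gilteritinib CD47 stood at 70.1 ± 8.6 CPM (log2 0.20, adjusted p = 0.38). Receptor and ligand were thus both higher in the 2 groups with MI-3454.

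CD4, best known as the coreceptor of helper T cells, is also carried by monocytes and monocytic blasts (ENSG00000010610.10, chr12:6786858-6820808, plus strand). Its level was 394, 408 and 360 CPM with DMSO, 433, 435 and 469 CPM with gilteritinib, 574, 498 and 601 CPM with MI-3454, and 544, 473 and 431 CPM with the combination. All treated libraries lay above all DMSO libraries, and the combination overlapped both single agents. CD4 rose by 0.53 ± 0.12 with MI-3454 (adjusted p = 0.0099) and by 0.32 ± 0.11 with the combination (adjusted p = 0.025), the smallest called changes of the abundant genes in these comparisons. The CD4 call with MI-3454 was lost without DMSO 3 (adjusted p = 0.054) or MI-3454 1 (0.052). That with the combination was lost without DMSO 1 (0.068), DMSO 3 (0.083), combination 1 (0.15) or combination 2 (0.077), and with no filter on low counts (0.11). With gilteritinib the change was 0.20 ± 0.10 (adjusted p = 0.22), and with replicate numbers as a block it was called (0.20, adjusted p = 0.029). IL16, a cytokine that binds CD4, rose by 1.77 with MI-3454 (15.2 ± 2.6 to 52.0 ± 3.8 CPM, adjusted p = 5.0e-06), by 0.90 with gilteritinib (adjusted p = 0.0012) and by 2.48 with the combination (adjusted p = 1.0e-10).

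CD38 moved the other way from most of the set. It encodes an ectoenzyme that consumes NAD and produces cyclic ADP-ribose (ENSG00000004468.13, chr4:15778275-15853230, plus strand). Its level was 63.0, 55.3 and 57.9 CPM with DMSO, 32.4, 32.6 and 33.8 CPM with gilteritinib, and 22.0, 24.7 and 19.6 CPM with MI-3454. With the combination it was 63.4, 58.6 and 81.1 CPM, which overlapped DMSO and stood above every library of either single agent. CD38 fell 2.66-fold with MI-3454 (log2 -1.41 ± 0.13, adjusted p = 1.2e-05) and by 0.84 ± 0.10 on the log2 scale with gilteritinib (adjusted p = 0.00019). With the combination the difference from DMSO was 0.20 ± 0.13 (adjusted p = 0.18). PECAM1 (CD31), the ligand of CD38, rose by 0.75 with MI-3454 (adjusted p = 0.00069), by 0.40 with gilteritinib (adjusted p = 0.024) and by 1.47 with the combination (adjusted p = 6.9e-09), from 175 ± 17 CPM in DMSO to 487 ± 6.9 CPM with the combination.

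CD44, the receptor for hyaluronan by which blasts adhere to the marrow matrix, behaved unlike the rest (ENSG00000026508.18, chr11:35138870-35232402, plus strand). Its level was 382, 338 and 309 CPM with DMSO, 434, 412 and 462 CPM with gilteritinib, 309, 312 and 319 CPM with MI-3454, and 212, 201 and 181 CPM with the combination. The combination libraries lay below all others and the gilteritinib libraries above all others, while MI-3454 overlapped DMSO. CD44 fell by 0.79 ± 0.11 with the combination (adjusted p = 1.7e-05). It differed from DMSO by -0.13 ± 0.12 with MI-3454 (adjusted p = 0.52) and by 0.35 ± 0.11 with gilteritinib (adjusted p = 0.059). The CD44 difference with gilteritinib passed the threshold in 6 of 12 alternatives, among them replicate numbers as a block (adjusted p = 0.00015) and leaving out DMSO 2 (0.044). Of the CD44 partners, EZR, the ezrin that ties CD44 to the actin cortex, fell by 0.50 with MI-3454 (adjusted p = 0.010) and by 1.20 with the combination (adjusted p = 5.3e-08), from 339 ± 8.5 to 147 ± 11 CPM. SRGN, a proteoglycan that binds CD44, rose by 0.60, 0.48 and 0.55 with MI-3454, gilteritinib and the combination (adjusted p = 0.0057, 0.016 and 0.00084).

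HAVCR2 encodes TIM-3, an inhibitory receptor found on T cells and on leukaemic stem cells (ENSG00000135077.9, chr5:157085832-157142869, minus strand). It was scarce throughout, at 1.46, 1.33 and 1.40 CPM with DMSO, 1.09, 1.22 and 1.98 CPM with gilteritinib, 2.68, 3.19 and 3.26 CPM with MI-3454, and 2.35, 1.06 and 1.99 CPM with the combination. Only the MI-3454 libraries stood apart from DMSO without overlap, and they rested on 24 to 31 counts each. HAVCR2 rose by 1.12 ± 0.28 with MI-3454 (adjusted p = 0.015), a call that was lost without the 4 libraries highest in RN7SL1 (HAVCR2 adjusted p = 0.063). It gave 0.37 ± 0.36 with the combination (adjusted p = 0.38) and 0.01 ± 0.34 with gilteritinib (adjusted p = 0.98). MED7, which shares 50 exonic bases with HAVCR2 on the same strand, had 832 counts over all libraries against 220 for HAVCR2. LGALS9, the galectin that binds TIM-3, gave -0.17 with MI-3454, 0.21 with gilteritinib and -0.40 with the combination and was not called (adjusted p = 0.63, 0.52 and 0.051).

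CD34, the sialomucin that marks progenitor cells (ENSG00000174059.17, chr1:207880972-207911402, minus strand), had 0 counts in each of the 12 libraries. A count of 0 allows up to 3 counts, or 0.251 to 0.426 CPM depending on the library, in counting error alone. The comparison therefore says nothing of a change of CD34 below that level.

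The combination was next compared with each single agent, which asks what the other agent added. Against MI-3454 alone, 2 of the 9 genes were higher (CD38 and CD36) and CD44 was lower, where 14.1% of all genes were called higher and 15.1% lower. CD38 was 3.07-fold higher (log2 1.62 ± 0.14, adjusted p = 1.4e-05), CD36 was 1.83-fold higher (log2 0.87 ± 0.13, adjusted p = 0.00067), and CD44 fell by 0.65 ± 0.09 (adjusted p = 0.00051). HAVCR2 gave -0.74 ± 0.32 without overlap (adjusted p = 0.097), ANPEP gave -0.35 ± 0.17 (adjusted p = 0.14) and SIRPA gave 0.21 ± 0.10 (adjusted p = 0.14). Without the 4 libraries highest in RN7SL1, SIRPA (0.22), ANPEP (-0.35) and CD4 (-0.23) were called as well, with adjusted p = 0.029, 0.026 and 0.031. SIRPA was also called without MI-3454 3 (0.27, adjusted p = 0.020).

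Against gilteritinib alone, 6 of the 9 genes were higher with the combination and CD44 was lower, where 30.1% of all genes were called higher and 30.3% lower. CD36 was 22.6-fold higher (log2 4.50 ± 0.17, adjusted p = 4.3e-11), CLEC12A 11.8-fold (3.57 ± 0.18, 1.1e-09) and ANPEP 5.27-fold (2.40 ± 0.17, 3.4e-08). CD38 was 2.05-fold higher (log2 1.04 ± 0.11, adjusted p = 2.1e-06), SIRPA gave 0.54 ± 0.09 (adjusted p = 0.00011) and CD33 gave 0.28 ± 0.08 (adjusted p = 0.0071). CD44 fell by 1.13 ± 0.09 (adjusted p = 1.7e-07). CD4 and HAVCR2 were not called (0.12 ± 0.10 and 0.37 ± 0.37, adjusted p = 0.30 and 0.41).

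MI-3454 compared directly with gilteritinib gave 5 higher genes and 2 lower, where 9.96% of all genes were called higher and 7.43% lower. CD36 was 12.4-fold higher with MI-3454 (log2 3.63 ± 0.22, adjusted p = 5.5e-07), CLEC12A 12.6-fold (3.65 ± 0.26, 2.5e-06) and ANPEP 6.64-fold (2.73 ± 0.19, 2.0e-06). CD38 was lower by 0.58 ± 0.12 (log2 -0.58, adjusted p = 0.0052) and CD44 was lower (log2 -0.48 ± 0.10, adjusted p = 0.0067). HAVCR2 (1.10 ± 0.30, adjusted p = 0.029) and SIRPA (0.33 ± 0.10, adjusted p = 0.049) were the weakest calls. HAVCR2 lost its call without gilteritinib 1 (0.13) or 2 (0.091) and without MI-3454 1 (0.055) or 2 (0.074), and SIRPA without gilteritinib 1 (0.15), 2 (0.11) or 3 (0.16) and without MI-3454 1 (0.10) or 2 (0.062).

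Whether both agents together gave the sum of their separate log2 changes was tested with the interaction term over all 12 libraries. It was called in 4 of the 9 genes, 1 higher than the sum and 3 lower, where 6.55% of all genes were called higher and 8.74% lower. CD38 departed most: its single-agent changes sum to -2.25, the combination gave 0.20, and the interaction was 2.45 ± 0.18 (adjusted p = 3.0e-07). ANPEP summed to 6.14 and gave 4.08 (interaction -2.05 ± 0.33, adjusted p = 0.00062). CD44 summed to 0.22 and gave -0.79 (interaction -1.01 ± 0.14, adjusted p = 0.00019). CD33 summed to 1.50 and gave 0.94 (interaction -0.56 ± 0.13, adjusted p = 0.011). With both agents CD38 thus overlapped DMSO, although it fell with either, while ANPEP and CD33 rose by less than the sum and CD44 fell with both agents and was not called with either.

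The term was not called for CLEC12A (-1.25 ± 0.44, adjusted p = 0.066), CD4 (-0.41 ± 0.15, adjusted p = 0.079), CD36 (0.86 ± 0.38, adjusted p = 0.14), HAVCR2 (-0.76 ± 0.46, adjusted p = 0.28) and SIRPA (-0.14 ± 0.13, adjusted p = 0.51). CD36 was called without DMSO 2 (1.12, adjusted p = 0.041), CLEC12A without MI-3454 3 (-1.46, adjusted p = 0.012), and CD4 without MI-3454 2 (-0.47, adjusted p = 0.047) or combination 1 (-0.50, adjusted p = 0.036). Without the 4 libraries highest in RN7SL1, all 3 were called. For CLEC12A, CD36 and HAVCR2 the standard error was over 0.3, so that departures of moderate size could not be seen.

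**Figure D3:**
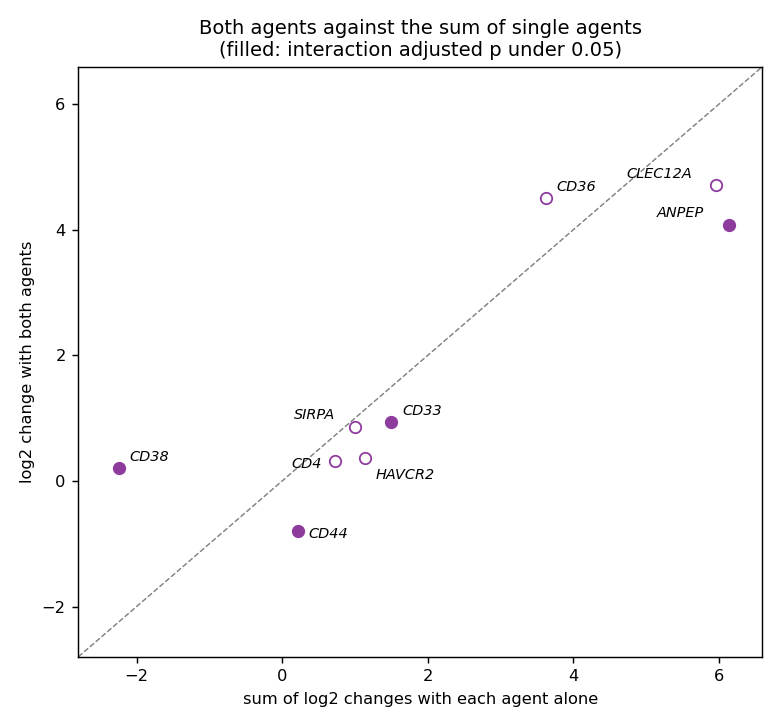
Log2 change with both agents (vertical axis) against the sum of the log2 changes with each agent alone (horizontal axis), 1 point per gene, with a dashed line where they are equal and filled points where the interaction was called. CD38 lies above the line at -2.25 and 0.20, and ANPEP, CD44 and CD33 lie below it.

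Close relatives of these genes were then read from lists by family, chosen with results of these data known. In the Siglec family of CD33, 8 of 14 genes could be tested. All 8 were called higher with MI-3454 (median log2 1.89) and again with both agents (median 2.14), and 3 were higher with gilteritinib (median 0.53). Those are 100, 100 and 37.5% of the tested Siglecs, beside 10.1, 29.2 and 6.92% of all genes. SIGLEC11, SIGLEC12 and SIGLEC16 had means of 0.357 to 0.732 CPM with DMSO and 0.476 to 0.967 CPM with gilteritinib. Without the groups with MI-3454 these 3 would not have passed the low-count filter, so their rise was close to given. SIGLEC9 rose by 2.1 with MI-3454 (1.30 ± 0.31 to 5.63 ± 2.0 CPM, adjusted p = 0.00069), SIGLEC10 by 1.85, SIGLEC14 by 1.93 and SIGLEC11 by 3.01. With the combination SIGLEC11 reached 11.7 ± 1.3 CPM and SIGLEC16 reached 7.22 ± 0.31 CPM from 0.732 and 0.357 CPM in DMSO, while SIGLEC14 rose by 2.75 and SIGLEC9 by 2.19. SIGLEC11 and SIGLEC16, and SIGLEC14 and SIGLEC5, are near-identical pairs, so their separate counts are uncertain. With gilteritinib SIGLEC6 rose by 0.96 (18.7 ± 3.0 to 36.5 ± 6.1 CPM, adjusted p = 0.0013). The count of 3 with gilteritinib fell to 1 with DESeq2 or without DMSO 1 or 3 or any gilteritinib library, and was 5 with replicate numbers as a block.

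Of the C-type lectins, 7 of 19 could be tested, and 4 were called higher with MI-3454 (median 1.94). CLEC7A, the beta-glucan receptor dectin-1, rose by 3.47 with MI-3454 (0.575 ± 0.46 to 6.27 ± 1.9 CPM, adjusted p = 0.00012). CLEC12B, the nearest relative of CLEC12A, had 0 counts in DMSO and stood at 1.56 ± 0.61 CPM with MI-3454 and 2.29 ± 0.79 CPM with the combination (adjusted p = 0.00077 and 7.0e-06). With the combination 4 were called higher and 1 lower (median 1.36): OLR1, a receptor for oxidised lipoprotein, rose by 4.74 to 13.4 ± 2.5 CPM, CLEC2D rose by 0.72, and LY75 fell by 1.06 (adjusted p = 6.4e-10, 0.00062 and 8.7e-05). The only call with gilteritinib (median -0.51) was a rise of CLEC11A by 0.50 (adjusted p = 0.046), lost without DMSO 1 or 3 or any gilteritinib library. Calls of 2 lower C-type lectins appeared with gilteritinib with replicate numbers as a block, without the 4 libraries with most RN7SL1, or without DMSO 2 alone. In the reported fit 57.1, 14.3 and 57.1% were higher with MI-3454, gilteritinib and the combination (all genes 10.1, 6.92 and 29.2%). The 4 higher with MI-3454 (CLEC12B, CLEC5A, CLEC7A and OLR1) had means of 0 to 0.575 CPM with DMSO and 0 to 0.109 CPM with gilteritinib. They passed the low-count filter only through the groups with MI-3454, so a rise was close to given. All but CLEC5A were called higher with the combination too. These shares are therefore no result about the family. The share lower with the combination was 14.3%, below the 28.4% of all genes.

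Among the relatives of SIRPA and HAVCR2, 4 of 6 genes could be tested, and 3 rose under MI-3454 (median 2.18) as under the combination (median 2.61). The share higher was thus 75.0% in both, beside 10.1 and 29.2% of all genes. With gilteritinib it was 25.0%, beside 6.92%. Among the 3 was SIRPD, at 0.238 CPM with DMSO and 0.347 CPM with gilteritinib. SIRPD passed the low-count filter only through the groups with MI-3454, so its rise was close to given. The share lower with the combination was 25.0%, near the 28.4% of all genes. SIRPB1, an activating receptor of the same family, rose by 1.78, 0.98 and 1.95 with MI-3454, gilteritinib and the combination (adjusted p = 1.0e-06, 8.6e-05 and 4.0e-10). It was the 1 gene of the list called with gilteritinib, a count that was 2 with replicate numbers as a block or without DMSO 2. SIRPB2 rose from 4.35 ± 1.3 to 33.8 ± 1.3 CPM with MI-3454 and to 69.9 ± 0.88 CPM with the combination (adjusted p = 9.5e-07 and 5.9e-12). SIRPG, which also binds CD47, fell by 1.97 with the combination, from 0.866 ± 0.19 to 0.193 ± 0.17 CPM (adjusted p = 0.012).

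BST1 (CD157), the gene next in kind to CD38, rose with the single agents with which CD38 fell, and with the combination. It rose by 2.02 with MI-3454, 0.60 with gilteritinib and 2.64 with the combination (adjusted p = 2.1e-05, 0.048 and 4.3e-10), from 7.79 ± 1.9 to 31.7 ± 5.7, 11.7 ± 0.41 and 48.6 ± 0.96 CPM. The gilteritinib call of BST1 was lost without any single DMSO or gilteritinib library. Of the 7 tested enzymes of NAD, nucleotides and peptides at the cell surface, the only other gene called against DMSO was ENTPD1 (CD39). It reached 3.16 ± 0.49 CPM with MI-3454 and 7.59 ± 1.6 CPM with the combination, from 0.124 ± 0.11 CPM in DMSO (adjusted p = 6.4e-05 and 1.0e-08). ENTPD1 passed the low-count filter only through these groups with MI-3454. The peptidases ERAP1 and LNPEP, relatives of ANPEP, gave 0.20 and 0.22 with MI-3454 (adjusted p = 0.28 and 0.48). The medians of this list were 0.22, 0.07 and 0.18 with MI-3454, gilteritinib and the combination. With the combination 28.6% of the list was called higher, near the 29.2% of all genes. The share higher was 28.6% with MI-3454 (all genes 10.1%) and 14.3% with gilteritinib (all genes 6.92%). With gilteritinib, 3 enzymes were called lower with replicate numbers as a block, without the 4 libraries with most RN7SL1, or without DMSO 2 alone, where the reported edgeR fit and DESeq2 called 0 lower, and 1 (ADAM17) was lower at an unadjusted p under 0.05.

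Of the scavenger receptors, 6 of 11 could be tested. With MI-3454, 3 rose (median 1.04), a count that fell to 1 without DMSO 1 or MI-3454 1. With the combination 5 rose and 1 fell (median 1.30). The 3 of 6 higher with MI-3454 stand beside 10.1% of all genes. Under gilteritinib 0 rose and 1 fell (16.7%, all genes 8.18%). Under the combination 83.3% were higher (all genes 29.2%) and 16.7% lower, below the 28.4% of all genes. MARCO and CXCL16, called higher in both groups with MI-3454, had 129 and 139 counts over all libraries. Their means were 0.098 and 0.579 CPM with DMSO and 0.839 and 1.78 CPM with MI-3454, so these rises rest on few counts. LRP1, a large endocytic receptor, rose by 1.99 with MI-3454 and 2.50 with the combination (adjusted p = 0.00020 and 2.1e-08) and fell by 1.45 with gilteritinib (adjusted p = 0.0071). SCARB2, of the same family as CD36, rose by 0.64 with the combination, while SCARB1 fell by 0.45 (adjusted p = 0.00068 and 0.0053). AGER rose by 1.38 with the combination, to 20.5 ± 2.7 CPM (adjusted p = 5.3e-06).

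In the CD34 family and adhesion receptors of progenitors, 6 of 10 could be tested, and the medians were -0.35, -0.10 and -0.66 with MI-3454, gilteritinib and the combination. With MI-3454, 2 fell and ICAM3 rose by 0.86 (adjusted p = 0.0011). The count of 2 fell to 0 without DMSO 2 or MI-3454 1 and to 1 without DMSO 3 or MI-3454 2. With gilteritinib, 1 gene was called lower with replicate numbers as a block or without DMSO 2. With the combination 4 fell, among them PODXL2, a sialomucin related to CD34 (by 1.31, 73.5 ± 12 to 29.4 ± 3.5 CPM, adjusted p = 4.3e-07), CD164 (by 0.72, adjusted p = 7.3e-05) and ENG (by 0.60, adjusted p = 0.0027), and ICAM3 rose by 0.96 (adjusted p = 6.5e-06). Shares lower were 33.3% with MI-3454 and 66.7% with the combination, beside 8.95 and 28.4% of all genes. Shares higher were 16.7% in both, beside 10.1 and 29.2%.

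**Figure D4:**
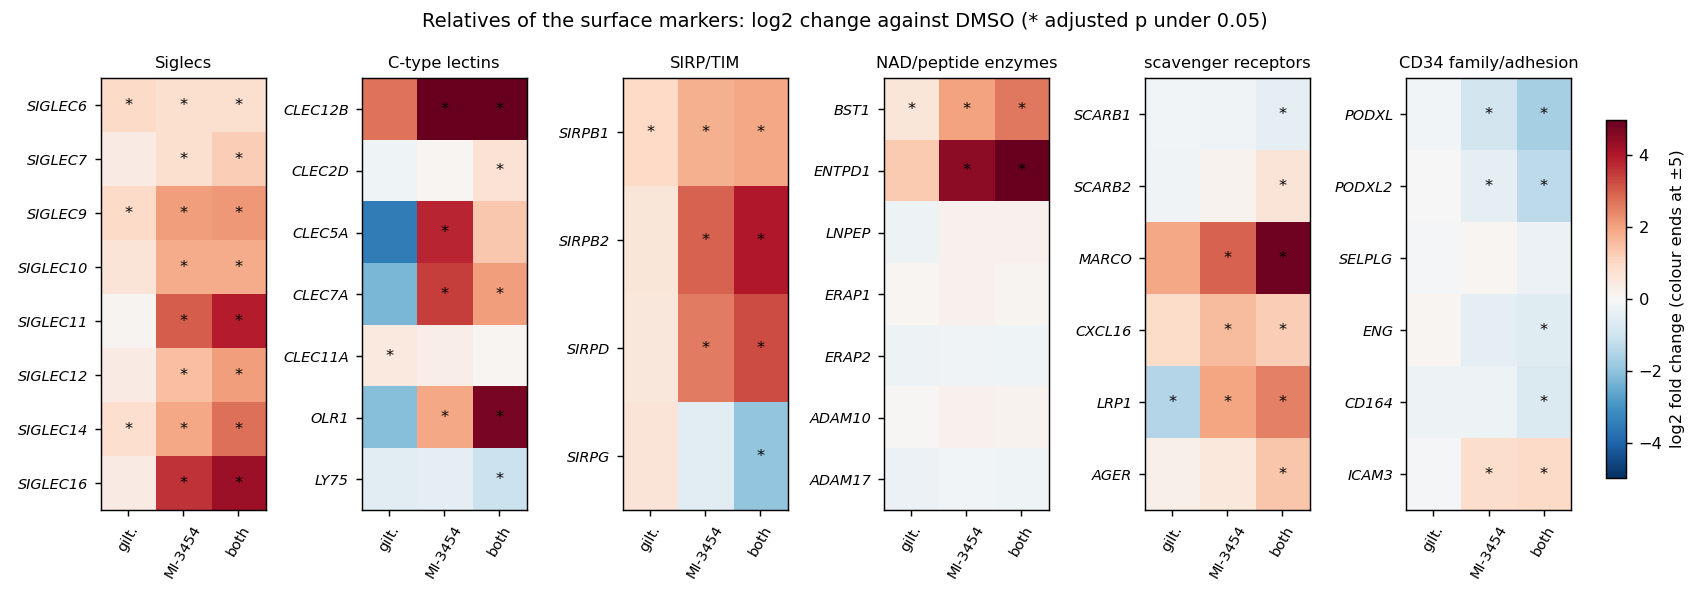
Log2 fold change against DMSO (colour, ending at ±5) of the tested relatives of the surface markers, by family, with gilteritinib, MI-3454 and both, and a star where the adjusted p was under 0.05. All 8 Siglecs carry a star with MI-3454 and with both agents, and PODXL and PODXL2 are blue with both; colours of genes with few counts, such as CLEC12B and CLEC5A, are uncertain.

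Other surface markers and targets of myeloid leukaemia numbered 40, of which 32 could be tested. With MI-3454, 14 rose and 5 fell (median 0.28), with gilteritinib 7 and 6 (median -0.11) and with the combination 16 and 12 (median 0.33). With the combination the share lower was 37.5%, not far from the 28.4% of all genes, and 16 of 32 were higher, beside 29.2% of all genes. The shares were 43.8 and 15.6% with MI-3454 (all genes 10.1 and 8.95%) and 21.9 and 18.8% with gilteritinib (all genes 6.92 and 8.18%). CD14, the monocyte receptor for endotoxin, rose by 5.39 with MI-3454 and 5.57 with the combination (0.286 ± 0.25 to 12.7 ± 1.5 and 14.4 ± 1.5 CPM, adjusted p = 6.6e-07 and 3.2e-10). CD93 rose by 1.81, 1.34 and 2.92 with MI-3454, gilteritinib and the combination (adjusted p = 7.9e-07, 4.3e-06 and 2.1e-12). IL2RA (CD25) fell from 55.2 ± 3.3 CPM in DMSO to 1.08 ± 0.044 CPM with MI-3454 (adjusted p = 7.0e-09). With gilteritinib IL2RA had 1 count in all 3 libraries against 1706 in DMSO, a ratio of 1622 with a 95% counting interval of 291 to 64100, and with the combination 2 counts, a ratio of 775 (214 to 6407). CD9 fell with MI-3454 and with the combination (log2 -1.73 and -2.95, adjusted p = 0.00013 and 7.3e-08). With gilteritinib ITGA4 rose by 0.82 and CCR1 fell by 1.22 (adjusted p = 0.00026 and 1.8e-05). The count of 7 higher with gilteritinib was 4 without DMSO 1 or 3 or gilteritinib 2 or 3, and 11 higher and 11 lower were called with replicate numbers as a block.

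Of 29 ligands and signalling partners, which hold the genes described beside CD47, IL16, PECAM1, EZR and SRGN above, 22 could be tested. With MI-3454, 7 rose and 1 fell (median 0.18), with gilteritinib 3 rose and 1 fell (median 0.09), and with the combination 8 rose and 8 fell (median -0.16). The shares with the combination, 36.4% each way, lay near those of all genes (29.2 and 28.4%). Shares higher and lower were 31.8 and 4.55% with MI-3454 (all genes 10.1 and 8.95%). With gilteritinib they were 13.6 and 4.55% (all genes 6.92 and 8.18%). The share lower was thus below that of all genes with each single agent. TYROBP, the adaptor through which activating SIRP and C-type lectin receptors signal, rose by 0.70 with MI-3454 and 1.05 with the combination (adjusted p = 0.014 and 5.5e-06). FYN, a kinase that acts with CD36, fell by 1.85 with gilteritinib (17.0 ± 1.7 to 4.68 ± 0.49 CPM, adjusted p = 1.1e-05). PTPN6 and PTPN11, the phosphatases SHP-1 and SHP-2 that CD33, CLEC12A and SIRPA recruit, fell by 0.55 and 0.45 with the combination (adjusted p = 0.00090 and 0.0017). The single fall with MI-3454 was 0 without MI-3454 2 and 2 without DMSO 2, and the 3 rises with gilteritinib were 1 without gilteritinib 1 or 3, 5 without DMSO 2 and 8 with replicate numbers as a block, which also gave 3 falls. The single fall with gilteritinib became 2 without DMSO 2.

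All 18 transcription factors of myeloid and progenitor cells could be tested. With MI-3454, 7 rose and 5 fell (median 0.22), with gilteritinib 6 and 2 (median 0.11) and with the combination 9 and 5 (median 0.31), a count of 9 that fell to 5 without DMSO 1 or combination 1. The 2 falls with gilteritinib became 5 with replicate numbers as a block. With the combination, 27.8% lower lay near the 28.4% of all genes, and 9 of 18 were higher, beside 29.2%. The shares higher and lower were 38.9 and 27.8% with MI-3454 (all genes 10.1 and 8.95%). With gilteritinib 33.3% were higher (all genes 6.92%), and 11.1% were lower, near the 8.18% of all genes. CEBPE and CEBPD, factors of granulocyte and monocyte maturation, rose by 2.55 and 2.12 with MI-3454 (adjusted p = 1.9e-05 and 3.0e-07). With gilteritinib they rose by 1.85 and 0.97 (adjusted p = 0.00021 and 2.9e-05), and with the combination by 2.06 and 2.43 (adjusted p = 1.3e-06 and 3.8e-11). CEBPB fell by 0.92 with gilteritinib (adjusted p = 0.00022). MEIS1 and MEF2C, which MLL fusions activate, fell with MI-3454 (log2 -2.62 and -2.35) and with the combination (log2 -3.71 and -4.18, adjusted p = 2.0e-07, 1.7e-07, 1.2e-11 and 2.4e-13). GATA2, a factor of progenitors and mast cells, rose by 0.83 with gilteritinib (172 ± 27 to 306 ± 17 CPM, adjusted p = 0.0008). It fell with MI-3454 (log2 -0.79, adjusted p = 0.0042) and with both agents (log2 -2.80, to 24.6 ± 5.1 CPM, adjusted p = 1.3e-10). PPARG, a regulator of CD36, gave 0.82, -1.30 and 1.22 with MI-3454, gilteritinib and the combination, all called (adjusted p = 0.0062, 0.00051 and 4.2e-06). SPI1, which encodes PU.1, gave 0.07, 0.24 and 0.12 and was not called (adjusted p = 0.86, 0.32 and 0.47).

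The tested protein-coding genes whose pattern lay nearest to each member were found among 11478 candidates by the root mean square difference of centred log2 CPM over the 12 libraries, which share their scaling and depth. For CLEC12A they were CYBB, ANXA1 and LYZ, at 0.36, 0.40 and 0.41 log2 units, beside an SD of 2.15 of CLEC12A itself. ANPEP had BPI (0.31), OLIG1 (0.37) and MPO (0.44), and CD36 had SLC8A1 (0.30), CD101 (0.38) and LYZ (0.41). LYZ, the gene of lysozyme, was thus among the nearest 3 of both CLEC12A and CD36. CD38 had ARHGAP44 (0.29), C1QTNF3 (0.29) and ITGA6 (0.30), a looser likeness beside an SD of 0.69. The others were NACC2, FRAT1 and ACRBP for CD33 (0.076 to 0.087), IL17RA, FLI1 and FOSL2 for SIRPA (0.055 to 0.067), PSMB8, WWOX and FRAT2 for CD4 (0.059 to 0.084), CDCA4, NET1 and UNG for CD44 (0.10 to 0.12), and TAGAP, MAML2 and MOB3B for HAVCR2 (0.27 to 0.28).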

How the data were processed

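Each deposited file gives the authors' read counts per gene for 1 library, as whole numbers without normalization. Per the submitters' processing notes, cutadapt 2.1, STAR 2.7.1a, HTSeq 0.11.2, DESeq2 and GRCh38 were used, and the role of each is not given. Neither the annotation release nor the strand setting is given in the sources used here, so reads of overlapping antisense genes may not be told apart. The labels' protocols name ribosomal RNA depletion and TruSeq libraries of total RNA. The 5 summary lines per file were left out of library sizes and tests.

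Symbols were joined by Ensembl identifier, for 60340 of 60668 genes, and coordinates came from GENCODE 29, which lacks 2107 of them. The tests used edgeR 4.0.16 under R 4.3.3. Genes passing filterByExpr over the 4 groups were tested (13972 of 30849 with a count). A gene scarce elsewhere could thus pass through the groups with MI-3454 alone, such as CD14, MMP9, SIRPD and ENTPD1. Shares called higher include such genes, for which a rise was close to given. Each pair of groups was fitted by quasi-likelihood with TMM scaling over its 6 libraries, the interaction over all 12, and p-values were Benjamini-Hochberg adjusted over all tested genes. CPM are TMM-scaled over the 12 libraries and given as mean ± SD. SE is the standard error of a log2 change. Floors and intervals cover counting error only. The procedure was tested on simulated data. No 2 libraries had identical counts.

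Besides the 10 members, each list contributed up to 4 called genes with the largest log2 change per comparison with DMSO and a mean of 5 CPM or more in the higher of its groups, and ligands, partners and nearest relatives of members. Members and lists were chosen with earlier results of these data known. Alternatives were DESeq2 1.42.0, total counts, no filter, a replicate block, leaving out single libraries or the 4 highest in RN7SL1, and a fit of all 12 libraries. List counts were recomputed under these alternatives after seeing the data. Same-numbered libraries of gilteritinib and DMSO deviated together (r = 0.14, 0.39 and 0.11 for replicates 1, 2 and 3). In the other comparisons at least 1 correlation was under 0.1. The reported fits leave replicate numbers out in every comparison, also in gilteritinib against DMSO. The block is given only as an alternative.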

Additional observations from a re-analysis of the deposited data

Results flagged for a closer look

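The effect of MI-3454 differed by the presence of gilteritinib for 4 of the surface markers, by the interaction term of edgeR over 12 libraries with 3 per group. For CD38 the log2 effect of MI-3454 was higher with gilteritinib than without it by 2.45 ± 0.18 (adjusted p = 3.0e-07): -1.41 against DMSO, but 1.04 against gilteritinib. The effect on ANPEP differed by -2.05 ± 0.33 (adjusted p = 0.00062), being 4.44 without and 2.40 with gilteritinib. On CD44 the difference was -1.01 ± 0.14 (adjusted p = 0.00019), from -0.13 without to -1.13 with gilteritinib. CD33 differed by -0.56 ± 0.13 (adjusted p = 0.011), from 0.83 to 0.28. CD38 is thus the member whose response to MI-3454 had opposite signs, each called, in the 2 settings.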

How the results depend on the processing

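Over 18 alternative settings the log2 changes of the members were recomputed 801 times: 734 kept their side of the threshold, 39 lost the call and 28 gained it. The sign changed in 10, all of values called in neither fit: HAVCR2 (4) and CD36 (3) with gilteritinib against DMSO, CLEC12A for the combination against MI-3454, HAVCR2 for the combination against gilteritinib, and SIRPA in the interaction. The counts of members called with MI-3454 or the combination against DMSO, and with the combination against gilteritinib, stayed within 1.5 times. With gilteritinib against DMSO, total counts gave 3 called and 2 higher (5 and 4 as reported), and leaving out 1 library gave 3 to 5 called and 2 to 4 higher. For the combination against MI-3454, no filter gave 2 lower, and leaving out the 4 libraries highest in RN7SL1 gave 6 called and 3 lower. MI-3454 against gilteritinib gave 3 higher with the replicate block, which lost HAVCR2 and SIRPA, and 3 to 5 when 1 library was left out. For the interaction, no filter gave 2 higher, leaving out the 4 RN7SL1 libraries gave 7 called, 2 higher and 5 lower, and leaving out 1 library gave 1 to 2 higher. The cause of these shifts was not tested. With the replicate block, gilteritinib against DMSO gave 7 called members, and MI-3454 against DMSO gave 6, where CD4 (adjusted p = 0.068) and HAVCR2 (adjusted p = 0.052) lost their calls; there the replicates share only a number. The block changed no call of a member in the combination's comparisons or the interaction. CD33 in the combination against gilteritinib lost its call with no filter (0.23, adjusted p = 0.059). Counts were low for HAVCR2 in every group (10 to 31 per library), and for CLEC12A, ANPEP and CD36 in groups without MI-3454 (7 to 67). The part of depth in the spread of these genes was not tested.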
